A study of Mus musculus with 4 samples.

Results

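Cultures in which calmodulin was knocked down were compared with cultures that carried the same shRNAs and also received a calmodulin the shRNAs do not target. The comparison took, for each gene and each of 2 repeats, the log2 ratio of the knockdown sample minus the log2 ratio of the rescue sample of the same repeat date. All 4 samples of the series and all 19938 genes read by probe sets with exactly 1 gene symbol entered it. Both ratios of a repeat have the same control array below the line, so that array cancels in the difference, and the 2 differences share no array. Neurons were cultured from the cortex of P0 pups, that is on the day of birth, on a mixed background of the strains SV129 and C57BL/6. The protocol names both Syt1-deficient and wild-type pups, without saying which array came from which. Lentivirus was added at 5 days in vitro and RNA was taken at 14 to 15 days. The knockdown samples (KD30) received lentivirus with shRNAs against calmodulin, the rescue samples (rCaM) the shRNAs with a resistant wild-type calmodulin, and the control samples (L309), which stand only inside the ratios, a control lentivirus. Both groups compared here therefore carried the shRNAs. Medium with serum, B27 and Ara-C, a drug against dividing cells, was common to all. These are mixed primary cultures, so fewer cells of a type and less RNA per cell cannot be told apart.

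Calmodulin is a small calcium-binding protein found in all cells and abundant in neurons. When it has bound calcium it switches on kinases of the CaM kinase family and the phosphatase calcineurin, and it tunes many ion channels. Through CaM kinases and calcineurin it carries calcium signals from synapses and channels to the nucleus, where transcription factors such as CREB and MEF2 turn on activity-regulated genes. Several Calm genes encode the same protein.

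The 2 repeats gave differences in the same direction for many of the genes that lay far from 0. The mean difference of knockdown minus rescue was highest for Syt2 and lowest for the inducible cyclooxygenase gene Ptgs2. For Ptgs2 the knockdown ratios were -1.25 and 0.19, and the rescue ratios were 2.29 and 2.26. In all, 123 of 19938 genes (0.617%) differed between knockdown and rescue at a limma adjusted p under 0.05. The knockdown was higher for 37 (0.186% of all genes) and lower for 86 (0.431%). Each of the 123 had the same sign in both repeats, which passing this test all but requires, beside 54.4% of all genes. The fit used the 2 within-repeat differences and so had 1 residual degree of freedom beside 7.59 prior ones. Fitted without the pairing by repeat, 14 genes passed (0.0702%), 8 higher (0.0401%) and 6 lower (0.0301%), all of them among the 123. The other 109 missed the threshold in that fit, with adjusted p from 0.0515 to 0.867. With each column centred on its median 55 passed, and with all 35399 probe sets tested none did (0 by limma, 2600 at an unadjusted p under 0.05). Without pairing, leaving out either rescue sample left 0 genes (990 and 897 at an unadjusted p under 0.05), leaving out knockdown repeat 1 gave 350 and leaving out knockdown repeat 2 gave 147. In simulated data the paired fit made a larger share of false calls than its threshold allows, and the fit without pairing a smaller one. For a single gene an exact test over 2 pairs cannot go below p = 0.5, so the calls rest on a spread that limma pools over genes.

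By size alone, 21 genes (0.105%) were at least 2-fold higher in the knockdown in both repeats, 40 (0.201%) at least 2-fold lower, and 4 (0.0201%) were 2-fold apart with opposite signs. Of 54 genes at least 2-fold higher in repeat 1, 48 were above 0 in repeat 2, with a median of 0.71 there. Of 138 at least 2-fold lower in repeat 1, 102 were below 0 in repeat 2, with a median of -0.56. Read from the other side, 68 of the 94 genes that were 2-fold higher in repeat 2 lay above 0 in repeat 1 (median 0.25), and 202 of 248 low genes were below 0 (median -0.41). Across all genes, which are not independent replicates, the 2 differences correlated at r = 0.314 (Spearman's rho 0.199), and 54.4% of genes had the same sign in both. Differences were spread more widely in repeat 2, with a standard deviation of 0.351 on the log2 scale against 0.282 in repeat 1. Medians over all genes were -0.01 in repeat 1 and 0.05 in repeat 2.

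**Figure D1:**
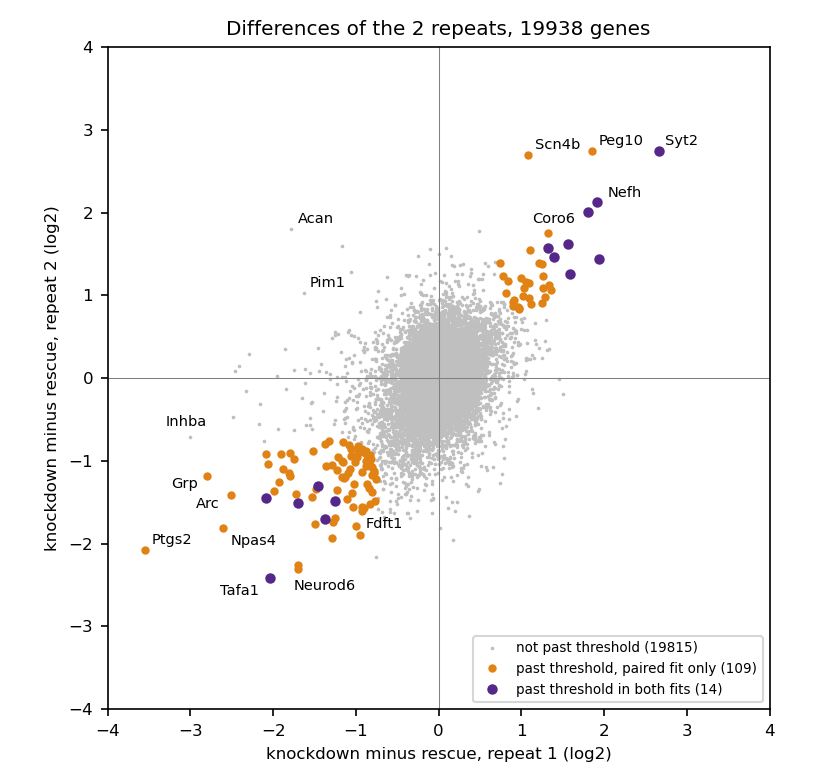
Each point is 1 of 19938 genes, with the knockdown minus rescue difference (log2) of repeat 1 on the x axis and of repeat 2 on the y axis; colours mark the 123 genes past the threshold and the 14 that also passed without pairing. Called genes lie in the upper right and lower left, with Syt2 at 2.66 and 2.74 and Ptgs2 at -3.55 and -2.08, while Acan lies at -1.78 and 1.80.

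Calm3, one of the targeted genes, was lower than control in all 4 samples and lowest in the rescue. Its log2 ratio to control was -1.32 and -2.40 in the knockdown against -2.41 and -3.55 in the rescue. Within each repeat the knockdown was the higher, although knockdown repeat 2 and rescue repeat 1 lay close together. The differences of 1.09 and 1.15 gave a mean of 1.12 (SE 0.15, n = 2 pairs, adjusted p = 0.0169, or 0.613 without pairing). Calm2 stood at -1.08 and -1.72 in the knockdown and at -0.84 and -1.28 in the rescue. Its mean difference of -0.34 missed the threshold (adjusted p = 0.458) and turned to 0.01 under quantile normalization. One of its 2 probe sets lay at -0.48 and the other at -0.19. The labels do not say whether these probe sets also detect the transcript of the rescue virus. The calmodulin-like genes Calm4, Calml3 and Calml4 had mean differences between 0.05 and 0.31 and did not pass.

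Of the 8 genes higher in the knockdown in both fits, several belong to fast-conducting axons and synapses. Syt2, a vesicular calcium sensor that triggers fast transmitter release and is found mainly in caudal brain regions and in fast-spiking interneurons, had ratios of 2.41 and 2.57 in the knockdown against -0.25 and -0.17 in the rescue. Both knockdown samples lay far above control and both rescue samples slightly below it, without overlap. The knockdown exceeded the rescue 6.33-fold in repeat 1 and 6.70-fold in repeat 2 (mean log2 difference 2.70, SE 0.15, adjusted p = 0.000696, or 0.00387 without pairing). Nefh, the heavy neurofilament chain of large axons, stood at 1.47 and 1.45 in the knockdown and at -0.44 and -0.68 in the rescue. Its repeats differed 3.77-fold and 4.38-fold (adjusted p = 0.0032), the second largest size on the higher side by the smaller repeat. Vamp1, the synaptobrevin that accompanies Syt2 at many fast synapses, had 1.38 and 1.61 in the knockdown against 0.07 and 0.04 in the rescue. Rescue samples lay at control level for this gene, and the mean difference was 1.44 (adjusted p = 0.00803).

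Cntnap1 encodes Caspr, a protein of the paranodal junction beside the node of Ranvier. Its ratios were 1.21 and 1.13 in the knockdown against -0.38 and -0.13 in the rescue (adjusted p = 0.00902). Lgi3, a secreted protein of the LGI family, stood at 0.90 and 1.24 in the knockdown against -0.66 and -0.39 in the rescue (adjusted p = 0.0057). For both genes the knockdown was above control and the rescue below it. Map1a, a microtubule-associated protein of mature neurons, had 1.27 and 1.26 against -0.12 and -0.20 (adjusted p = 0.00757). Coro6, a coronin of the actin-binding family, had 1.79 and 2.15 against -0.02 and 0.15 (adjusted p = 0.0038), so its rescue samples lay at control. Vwa5b2 had 1.51 and 1.5 against -0.42 and 0.06 (adjusted p = 0.0074), and both of its probe sets gave a mean difference close to that of the gene, 1.67 and 1.71.

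The 6 genes lower in the knockdown in both fits lay below control in the knockdown and above it in the rescue in every sample. Tafa1, a secreted chemokine-like protein of neurons, stood at -1.37 and -1.85 in the knockdown against 0.68 and 0.57 in the rescue. Its differences were 4.12-fold and 5.35-fold (mean log2 -2.23, SE 0.16, adjusted p = 0.0032). Acvr1c encodes ALK7, a type I receptor for activins and nodal. It had -1.06 and -0.48 in the knockdown against 1.03 and 0.96 in the rescue (adjusted p = 0.00757), so the rescue mean lay farther from control than the knockdown mean. Sema4a, a semaphorin of the transmembrane class, stood at -0.75 and -1.0 against 0.62 and 0.69. Homer1, a postsynaptic scaffold with a short form induced by activity, stood at -1.14 and -1.05 against 0.31 and 0.26 (adjusted p = 0.00836). Gpr26, an orphan receptor, had -1.47 and -1.12 against 0.23 and 0.39, and Cpne5, a calcium-binding copine, had -0.78 and -0.88 against 0.47 and 0.60.

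**Figure D2:**
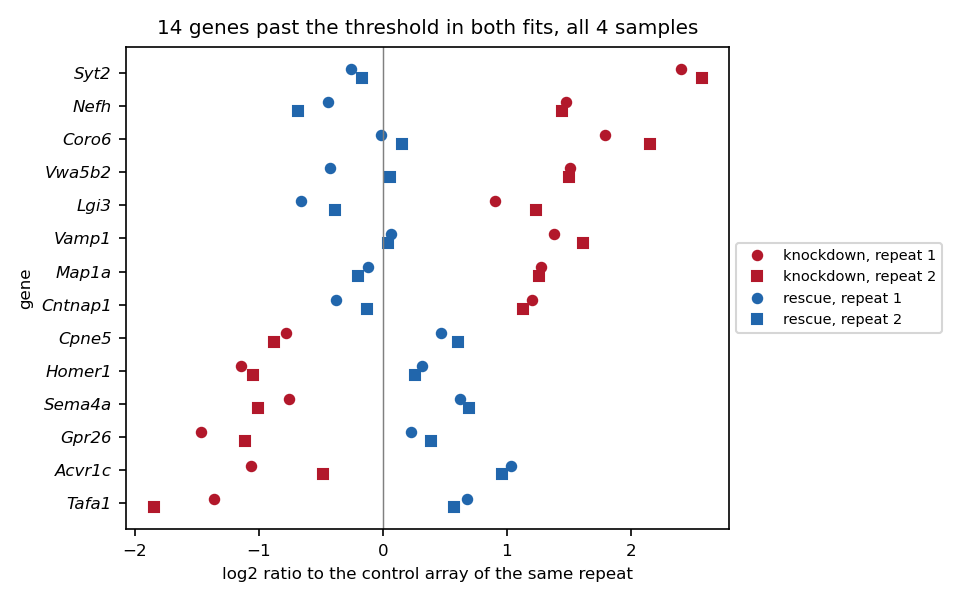
Log2 ratios to the control array of the same repeat (x axis) in the 4 samples for the 14 genes past the threshold in both fits (y axis); red marks are knockdown, blue rescue, circles repeat 1 and squares repeat 2. Knockdown and rescue marks do not overlap for any of the 14, which passing without pairing all but requires. Syt2 lies farthest out at 2.41 and 2.57 in the knockdown.

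Non-overlap of the 4 ratios was common over all genes, with both knockdown ratios above both rescue ratios for 16.5% and below them for 15.1%. It held for 37 of the 37 genes called higher and for 83 of the 86 called lower. The calls were made on these same 4 ratios, so this is no added support for them. Positions relative to control are given side by side, since both groups share the control array of their repeat. For the 37 genes called higher, the median log2 ratio was 1.05 in the knockdown and -0.25 in the rescue, and the rescue mean lay within 1.5-fold of control for 34 of them. Among the other 3 was Calm3, below control in both groups. For the 86 called lower, the medians were -0.72 (knockdown) and 0.50 (rescue). For 56 of them the rescue mean lay within 1.5-fold of control, and for 30 it was more than 1.5-fold above it. In 29 of the 86 the rescue mean was farther from control than the knockdown mean. These counts were not made over all genes. Across all genes the rescue log2 ratios had standard deviations of 0.243 (repeat 1) and 0.232 (repeat 2). Most genes thus lay near control in the rescue, and a rescue mean near control is not particular to the called genes. The least of the 123 mean differences was 0.88 in size, or 1.84-fold.

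**Figure D3:**
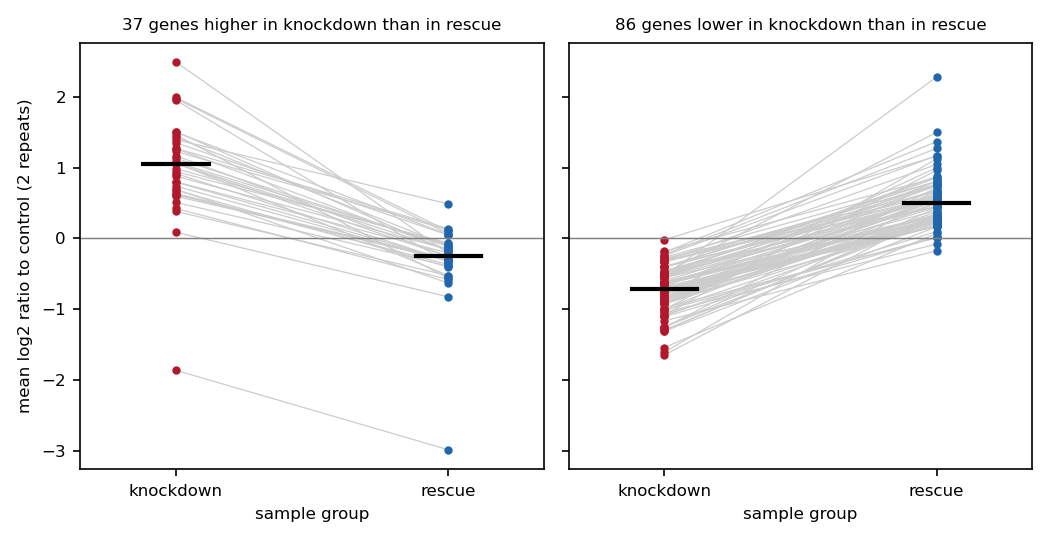
Mean log2 ratio to control over 2 repeats (y axis) in knockdown and rescue (x axis) for the 37 genes called higher (left) and the 86 called lower (right); grey lines join the values of 1 gene and black bars are medians. Medians pass from 1.05 to -0.25 on the left and from -0.72 to 0.50 on the right, and the lowest pair on the left is Calm3.

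Activity-regulated genes, the transcripts that neurons induce when they fire, included Ptgs2, the lowest of all genes in the mean difference. They were divided into an early list, mostly transcription factors and signalling inhibitors, and a late list of effectors. Of 26 early genes, 5 were lower in the knockdown and 0 higher, and of 27 late genes 5 were lower and 0 higher, against 0.431% lower over all genes. None but Homer1 passed without pairing, and with columns centred 3 early (Npas4, Arc and Egr3) and 2 late genes (Ptgs2 and Homer1) did. The early list had a median difference of -0.49 and the late list one of -0.51, beside 0.02 over all genes.

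Among early genes Npas4, a neuron-specific factor that calcium entry induces, had ratios of -2.07 and -0.11 in the knockdown against 0.54 and 1.70 in the rescue. The knockdown was 6.10-fold below the rescue in repeat 1 and 3.52-fold in repeat 2 (mean log2 -2.21, adjusted p = 0.0057, or 0.360 without pairing). Knockdown repeat 2 was near control while rescue repeat 2 was far above it, so the repeats reached a like difference from different places. Arc, which removes AMPA receptors from synapses, had -1.51 and -0.49 against 0.99 and 0.93 (adjusted p = 0.0131). Egr3 had -1.75 and -0.75 against 0.24 and 0.61 (adjusted p = 0.00836), and Egr1 lay 1.85-fold and 1.88-fold lower in the knockdown (adjusted p = 0.0407). Nr4a1, an orphan nuclear receptor, had -1.08 and 0.41 against 0.30 and 1.20 (adjusted p = 0.0407). Its groups overlapped, since knockdown repeat 2 lay above rescue repeat 1.

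Late genes followed with Ptgs2 in front, at -1.25 and 0.19 in the knockdown against 2.29 and 2.26 in the rescue. Rescue samples were both high, and the knockdown lay 11.7-fold and 4.22-fold below them (mean log2 -2.81, SE 0.29, adjusted p = 0.00757, or 0.0748 without pairing). Penk, which encodes proenkephalin, had differences of -2.08 and -0.91, Pcsk1, a convertase that cuts neuropeptide precursors, -1.74 and -0.98, and Rgs2, a brake on G protein signalling, -1.80 and -0.91 (adjusted p = 0.0414, 0.0265 and 0.0366). Inhba, the activin beta A chain, lay at -3.00 and -0.71 and Nptx2, a pentraxin that clusters AMPA receptors, at -2.48 and -0.47. Neither passed (adjusted p = 0.110 and 0.143), as their repeats lay far apart.

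The repeats differed for these lists as a whole. In repeat 1, 25 of 26 early and 25 of 27 late genes were lower in the knockdown, with medians of -0.87 and -1.12. In repeat 2 there were 13 of 26 and 17 of 27, with medians of -0.00 and -0.13. Over all genes 10369 of 19938 were below 0 in repeat 1 and 8430 in repeat 2. Median ratios to control of the early list were -0.57 and 0.21 in the 2 knockdown samples and 0.25 and 0.31 in the rescue. Those of the late list were -0.56 and 0.13, and 0.50 and 0.20. Knockdown repeat 1 was thus the lowest sample for both lists, and for the late list rescue repeat 1 was also the highest. Each ratio also depends on the control array of its repeat. Whether the 2 repeats differ could not be tested with 1 pair in each.

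Promoters of Ptgs2 and Npas4 are shown because both genes led these lists and carry the letters TGACG, the core of the CREB binding site. They are RefSeq promoters of the build GRCm38.p6, from 250 bases before to 50 bases after the start, 5′ to 3′, with each match in capitals on either strand (CGTCA is TGACG on the other strand).
Ptgs2 promoter (chr1:150099781-150100080, plus strand): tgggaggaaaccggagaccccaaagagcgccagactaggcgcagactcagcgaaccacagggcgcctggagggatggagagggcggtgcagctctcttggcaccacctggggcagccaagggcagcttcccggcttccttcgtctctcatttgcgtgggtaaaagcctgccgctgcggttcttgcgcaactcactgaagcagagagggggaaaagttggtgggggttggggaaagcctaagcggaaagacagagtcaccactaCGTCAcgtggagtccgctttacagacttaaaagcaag
Npas4 promoter (chr19:4989922-4990221, minus strand): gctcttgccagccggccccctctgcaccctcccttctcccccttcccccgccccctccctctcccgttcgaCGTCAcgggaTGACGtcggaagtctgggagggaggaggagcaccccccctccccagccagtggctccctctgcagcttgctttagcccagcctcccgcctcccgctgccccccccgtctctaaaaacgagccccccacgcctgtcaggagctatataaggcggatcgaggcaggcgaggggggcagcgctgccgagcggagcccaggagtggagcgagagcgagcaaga
The Ptgs2 stretch has 1 match and the Npas4 stretch 2. Of 21 early genes with a promoter in the RefSeq table, 16 (76.2%) had the 5 letters in a window of 300 bases, as did 12 of 18 late genes (66.7%) and 23.0% of all 27025 genes of the table. The full palindrome TGACGTCA, which contains the shorter motif, was present for 3 of 21 early and 4 of 18 late genes, against 2.03% of all and 2.72% of the genes of the arrays. Among the genes called lower, 21 of 69 with a promoter had TGACG, and among those called higher 10 of 31 (30.4% and 32.3%, against 28.0% of the 15614 genes of the arrays with a promoter). A match describes letters only and says nothing of binding in these cultures.

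**Figure D4:**
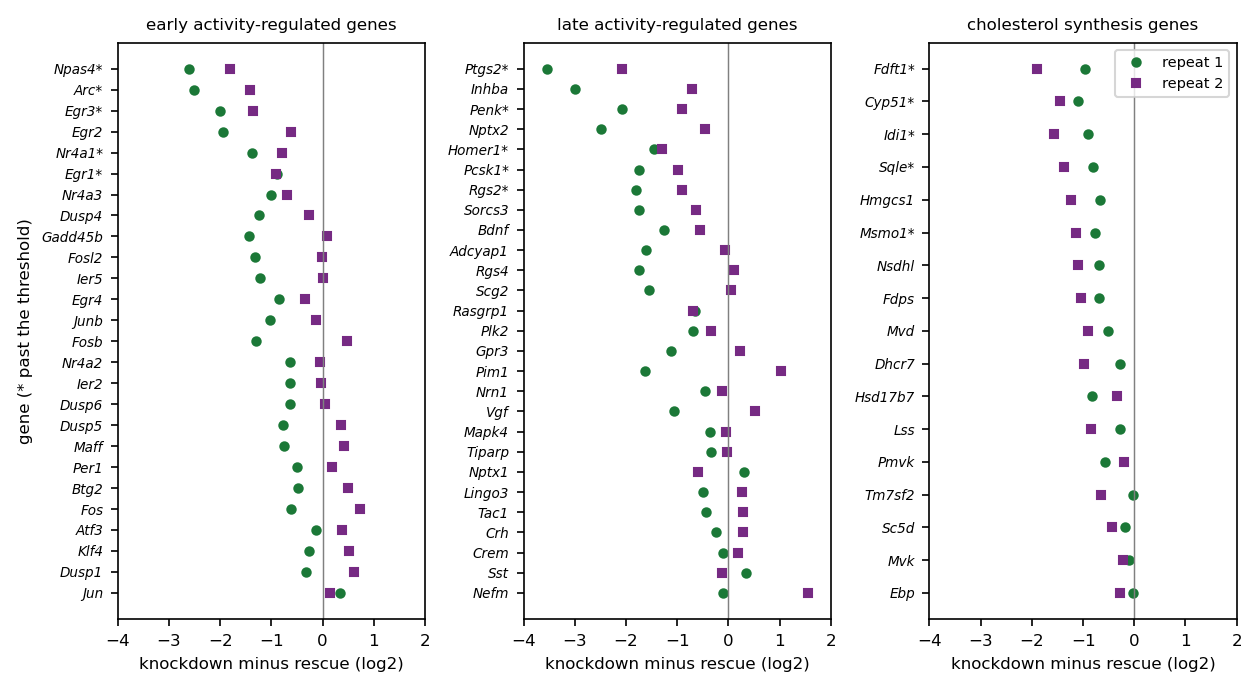
Knockdown minus rescue differences (log2, x axis) of every measured gene of 3 lists (y axis) in repeat 1 (circles) and repeat 2 (squares); stars mark genes past the threshold. Early and late activity-regulated genes lie mainly below 0 in repeat 1 and on both sides of 0 in repeat 2, while all 17 cholesterol synthesis genes lie below 0 in both.

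Cholesterol synthesis genes were the list with the lowest median, -0.71, and the 2 repeats gave -0.66 and -0.97. Of 17 measured, 5 were lower in the knockdown and 0 were higher, against 0.431% lower and 0.186% higher over all genes. In both repeats 17 of 17 were below 0, against 24.3% of all genes. None of the 5 passed without pairing, and Cyp51 alone of the 5 passed with columns centred (adjusted p = 0.0435, and from 0.0862 to 0.0986 for the other 4). Fdft1, squalene synthase, had ratios of -0.47 and -1.28 in the knockdown against 0.48 and 0.61 in the rescue. All knockdown values were below control and all rescue values above it, and the mean difference was -1.42 (SE 0.22, adjusted p = 0.0328, or 0.167 without pairing). Cyp51, the lanosterol demethylase, had -0.30 and -1.27 against 0.81 and 0.19 (adjusted p = 0.0143), and Idi1, the isopentenyl diphosphate isomerase, -0.03 and -0.94 against 0.87 and 0.63 (adjusted p = 0.031). Both probe sets of Fdft1 and both of Idi1 agreed within 0.02 on the mean difference. Sqle, squalene epoxidase, had differences of -0.80 and -1.37 and Msmo1, a sterol methyl oxidase, -0.78 and -1.13 (adjusted p = 0.0407 and 0.0419).

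The list of other targets of SREBP, the factor that drives sterol synthesis, had a median of -0.05, and 0 of its 15 measured genes passed. Stard4, a sterol carrier, was at -0.75 and Srebf2, which encodes a form of SREBP itself, at -0.72 (adjusted p = 0.0827 and 0.0955). Median ratios of the cholesterol list were -0.38 and -0.81 in the knockdown against 0.17 and 0.15 in the rescue. Astrocyte markers, from cells that make much of the brain's cholesterol, had medians of the opposite sign in the same differences (0.37 and 0.36), and their part in the sterol result was not tested.

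Promoters of Idi1 and Cyp51 are shown because both genes passed and carry CCAAT, the box bound by NF-Y, a usual partner of SREBP. Capitals mark CCAAT or its other-strand form ATTGG, in the same window and build as above.
Idi1 promoter (chr13:8885356-8885655, plus strand): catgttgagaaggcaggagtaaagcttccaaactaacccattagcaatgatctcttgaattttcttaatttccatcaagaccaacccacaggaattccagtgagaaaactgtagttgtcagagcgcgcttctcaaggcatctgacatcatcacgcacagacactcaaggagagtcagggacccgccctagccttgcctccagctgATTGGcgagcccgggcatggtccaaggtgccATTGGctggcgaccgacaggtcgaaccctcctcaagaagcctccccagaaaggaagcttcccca
Cyp51 promoter (chr5:4104648-4104947, minus strand): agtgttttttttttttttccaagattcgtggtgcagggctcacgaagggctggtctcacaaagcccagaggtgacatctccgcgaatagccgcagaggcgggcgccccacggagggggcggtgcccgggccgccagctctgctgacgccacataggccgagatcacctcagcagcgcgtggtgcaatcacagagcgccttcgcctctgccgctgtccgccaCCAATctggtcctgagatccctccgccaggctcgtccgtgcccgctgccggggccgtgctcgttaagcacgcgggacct
The Idi1 stretch holds 2 matches and the Cyp51 stretch 1. All 14 cholesterol synthesis genes with a promoter in the table had CCAAT, against 41.1% of all genes, 9 of 21 early and 6 of 18 late activity-regulated genes. It was present for 22 of 69 genes called lower (31.9%) and 15 of 31 called higher (48.4%), against 41.7% of the genes of the arrays.

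Synaptic genes were called lower in 2 lists, postsynaptic scaffolds (2 of 22) and glutamate receptors (2 of 25). Over all genes 0.431% were lower and 0.186% higher. Postsynaptic scaffolds had the lowest median of the synaptic lists, -0.55 (-0.46 and -0.59 in the repeats), with 19 of 22 below 0 in both repeats. Homer1 and Lrrtm3, an adhesion molecule of excitatory synapses, were lower (the latter at -0.85 and -0.96, adjusted p = 0.0407, or 0.0837 with columns centred), and Homer2 stood at -1.01 (adjusted p = 0.0607). Of 25 glutamate receptor genes 2 were lower and 0 higher, with a median of -0.31. Cacng3, an AMPA receptor auxiliary subunit, had ratios of -1.18 and -0.64 in the knockdown against 0.35 and 0.80 in the rescue (mean difference -1.48, adjusted p = 0.0074, or 0.121 without pairing). Grm7, a presynaptic metabotropic receptor, had differences of -0.85 and -1.33 (adjusted p = 0.0358, or 0.0862 with columns centred), and the NMDA receptor subunit Grin2a had -0.63 and -1.16 and missed the threshold (adjusted p = 0.0712).

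On the presynaptic side, 1 of 33 release genes, Vamp1, was higher and 0 were lower, while 23 were below 0 in both repeats and the median was -0.31. Rph3a, the Rab3 effector rabphilin, stood at -1.07 (adjusted p = 0.0827). Sv2c, a vesicle glycoprotein, stood at 0.76 (adjusted p = 0.0841). Vesicle recycling and transmitter loading genes had a median of -0.12 with 0 of 20 past the threshold. Of 17 synaptotagmins Syt2 was higher and 0 were lower. Syt10 was at -0.90 and Syt5 at -0.68, without passing (adjusted p = 0.0586 and 0.0995). GABA-A receptor subunits had a median of -0.17, with 0 of 10 past the threshold.

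Channel genes gave more calls on the lower side. Of 38 potassium and HCN channel genes, 5 were lower and 0 higher in the knockdown, against 0.186% higher and 0.431% lower over all genes, with a median of -0.39 (-0.15 and -0.59 in the repeats). With columns centred, Kcnv1 was the 1 channel of the list that passed. Kcnv1, a silent subunit that joins Kv2 channels, had ratios of -1.44 and -1.07 in the knockdown against 0.26 and 1.18 in the rescue. Its groups did not overlap, and the difference was 3.25-fold and 4.78-fold (mean log2 -1.98, SE 0.17, adjusted p = 0.0057, or 0.0991 without pairing). The others were Kcnh3, an ether-a-go-go family channel (-0.93 and -1.61), Kcnj4, an inward rectifier (-1.22 and -0.96), Kcnq5, an M-current channel that binds calmodulin (-0.76 and -1.22), and Kcnip3, also known as DREAM, a calcium-binding partner of Kv4 channels (-1.09 and -0.81). Their adjusted p lay between 0.0235 and 0.0429.

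Among 21 sodium and calcium channel genes 1 was higher and 1 lower, and the median was -0.27. Scn4b, a sodium channel beta subunit of fast-firing neurons, had ratios of 1.21 and 2.77 in the knockdown against 0.12 and 0.08 in the rescue. Both rescue samples lay near control, and the repeats gave 2.12-fold and 6.45-fold (adjusted p = 0.0411, or 0.276 without pairing, and 0.118 with columns centred). Cacna1i, a T-type calcium channel, had differences of -1.10 and -1.15 (adjusted p = 0.0169). Trpc6, a receptor-operated cation channel on no list, had ratios of -0.59 and 0.19 in the knockdown against 1.14 and 1.59 in the rescue (adjusted p = 0.0074).

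Of 38 calmodulin effector and binding protein genes 0 were higher and 0 lower by limma's adjusted p, 12 had an unadjusted p under 0.05, and the median was -0.29. Itpka, an inositol trisphosphate kinase that calmodulin activates, was at -1.08 (adjusted p = 0.0873), Gap43, a growth cone protein that binds calmodulin, at -0.69 and the kinase gene Camk4 at -0.64. Among 17 calcium buffers and neuronal calcium sensors, Hpca was lower and 0 were higher. Hpca encodes hippocalcin and stood at -1.31 and -1.31 in the knockdown and at -0.06 and 0.38 in the rescue (mean difference -1.47, adjusted p = 0.00912, or 0.0692 without pairing). Necab1 was at -1.10 without passing (adjusted p = 0.0893).

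Some axonal genes were called higher, while the medians of their lists in repeat 2 were near or below that of all genes. Of 19 axon, node and paranode genes 4 were higher and 1 lower, against 0.186% and 0.431% of all genes. The list median was 0.11 (0.20 and 0.05 in the repeats, beside -0.01 and 0.05 over all genes). With columns centred 3 passed on the higher side (Lgi3, Cntnap1 and Cntn2) and 0 on the lower. The 4 were Lgi3 and Cntnap1, described above, Cntn2, the axonal adhesion molecule TAG-1, and Epb41l3, the protein 4.1B that anchors Caspr. Cntn2 had ratios of 1.35 and 0.91 in the knockdown against 0.08 and -0.31 in the rescue (adjusted p = 0.0113, or 0.151 without pairing), and Epb41l3 had differences of 0.91 and 0.95 (adjusted p = 0.038). Lgi1, a secreted protein linked to AMPA receptor function, was lower (-0.83 and -1.52, adjusted p = 0.0407), so it and Lgi3 of the same family lay on opposite sides. Of 22 neurofilament and microtubule-associated genes Nefh and Map1a were higher and 0 were lower. The median of that list was 0.10 (0.11 and -0.06 in the repeats), with 12 of 22 below 0 in repeat 2. Nefl, the light chain, lay at 0.23 and 1.26 (adjusted p = 0.225), and Stmn4, a tubulin-binding stathmin, at -0.86 (adjusted p = 0.052).

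Calls in the next 3 lists are set against 0.431% lower and 0.186% higher over all genes. Of 42 axon guidance genes 3 were lower and 0 higher, and 24 lay below 0 in both repeats (median -0.26). Epha3, an ephrin receptor, had ratios of -1.01 and -1.59 in the knockdown against 0.49 and 0.17 in the rescue (mean difference -1.63, adjusted p = 0.0057, or 0.0748 without pairing). Sema4a was described above, and Sema3a, a secreted repellent of growth cones, had differences of -1.90 and -0.92 (adjusted p = 0.038, but 0.0535 under quantile normalization). Epha3 and Sema4a passed with columns centred. In the activin and TGF-beta family Acvr1c was lower and 0 of 22 were higher, with a median of -0.07 and 12 of 22 below 0. Of 22 neuropeptide genes 3 were lower and 0 higher, Penk as above, Grp and Cck, while the median was -0.09 and 12 of 22 lay below 0. Of these 3, Cck passed with columns centred. Grp, gastrin-releasing peptide, had -1.28 and 0.30 in the knockdown against 1.52 and 1.48 in the rescue (adjusted p = 0.0376, or 0.240 without pairing). Cck, cholecystokinin, had -0.99 and -1.51 against 0.29 and 0.24 (adjusted p = 0.00902), and one of its receptors, Cckbr, had -1.05 and 0.56 against 0.44 and 1.90 (adjusted p = 0.00803). The groups of Cckbr overlapped, so its call rests on the pairing (adjusted p = 0.656 without it).

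Imprinted genes, expressed from 1 parental copy, included the second highest mean difference. Peg10, a gene derived from a retrotransposon, had ratios of 1.29 and 2.61 in the knockdown against -0.57 and -0.13 in the rescue. Both knockdown samples were above control and both rescue samples below it, and the differences were 3.63-fold and 6.69-fold (mean log2 2.30, SE 0.21, adjusted p = 0.0057, or 0.130 without pairing). Peg3, a zinc finger protein, had differences of 1.10 and 0.97 and the noncoding RNA Rian 1.25 and 0.91 (adjusted p = 0.0264 and 0.0275, or 0.0653 and 0.0807 with columns centred). In all, 3 of 19 were higher and 0 lower, against 0.186% and 0.431% over all genes. Of the 19, 13 were above 0 in both repeats (30.1% of all genes were), and the median was 0.33. Of 3 called genes of the classes that were counted but not named by the rule, Mir323 (mean difference 1.00) and Mir679 (0.90) lie in the same imprinted cluster as Rian, and the other, 4930429B21Rik, was at -1.01. These 3 were chosen after their values were seen. The probe sets read precursor or host transcripts, which need not follow the mature miRNAs.

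Other genes that the ranking named were Maged2 (1.32 and 1.75 in the repeats), a MAGE family protein, Pnma3 (1.33 and 1.13), Flt3 (1.21 and 1.39), a receptor tyrosine kinase, Aifm3 (1.25 and 1.38) and Hap1 (1.10 and 1.55), the huntingtin-associated protein. All 5 were higher in the knockdown, with adjusted p from 0.0083 to 0.0144, and none passed without pairing. Maged2 came nearest there, at 0.0515. Of 16 p53 response and apoptosis genes 0 passed limma's adjusted threshold and 5 had an unadjusted p under 0.05, with a median of 0.22. Of 23 ER stress and amino acid response genes the counts were 0 and 4, with a median of -0.11.

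Markers of cell types were read in the same differences. Of 16 cortical excitatory neuron markers 1 was lower and 0 higher (median -0.26, and -0.10 and -0.42 in the repeats). It was Neurod6, a transcription factor of pyramidal neurons, at -0.81 and -2.49 in the knockdown against 0.90 and -0.18 in the rescue (mean difference -2.01, SE 0.18, adjusted p = 0.0057, or 0.351 without pairing). Neurod1 stood at -1.16 (adjusted p = 0.0551) and the vesicular glutamate transporter Slc17a7 at -0.69 (adjusted p = 0.116). Among 19 interneuron markers Cck was lower and 0 were higher, and the median was 0.12 (0.29 and -0.13 in the repeats). The vesicular GABA transporter Slc32a1 was at 0.66 (adjusted p = 0.114) and Calb2, the calcium buffer calretinin, at -0.89 (0.18 and -1.95 in the repeats, adjusted p = 0.448). Of 13 parvalbumin and fast-synapse markers 4 were higher, Syt2, Nefh, Vamp1 and Scn4b, and 0 were lower (median 0.37). Over all genes 0.186% were higher and 0.431% lower. However, Pvalb itself had differences of -0.40 and 0.04 and the potassium channel gene Kcnc1 0.64 and -0.04 (both added here after their values were seen). The parvalbumin and fast-synapse list was drawn up with the values of Syt2 and Vamp1 in these data known.

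No marker of other cells passed. Of 19 astrocyte markers, 18 were above 0 in both repeats, with medians of 0.37 and 0.36, and 11 had an unadjusted p under 0.05. Gfap, the astrocyte intermediate filament, had ratios of 0.28 and 0.41 in the knockdown against -0.46 and -0.31 in the rescue (difference 0.73, adjusted p = 0.0841), and Sox9 had a difference of 0.64 (adjusted p = 0.112). Fibroblast, pericyte and meningeal markers had medians of 0.07 in repeat 1 and 0.75 in repeat 2, where 14 of 14 were above 0. Interferon and antigen presentation genes likewise had -0.10 and 0.58, with 19 of 19 above 0 in repeat 2. Microglia markers had a median of 0.10, oligodendrocyte lineage markers 0.10, endothelial markers 0.00, dividing cell genes 0.06 and ubiquitously used genes -0.06. All 8 lists had 0 genes past limma's adjusted threshold, and at an unadjusted p under 0.05 the counts were 6 for fibroblast, 4 for interferon, 2 for ubiquitous, 1 each for microglia and oligodendrocyte and 0 for endothelial and dividing cell genes. The ratios carry no intensity, so the level of a marker and its absence could not be read. The part of these cell types in the lower neuronal and sterol values or the higher values of some axonal genes was not tested.

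**Figure D5:**
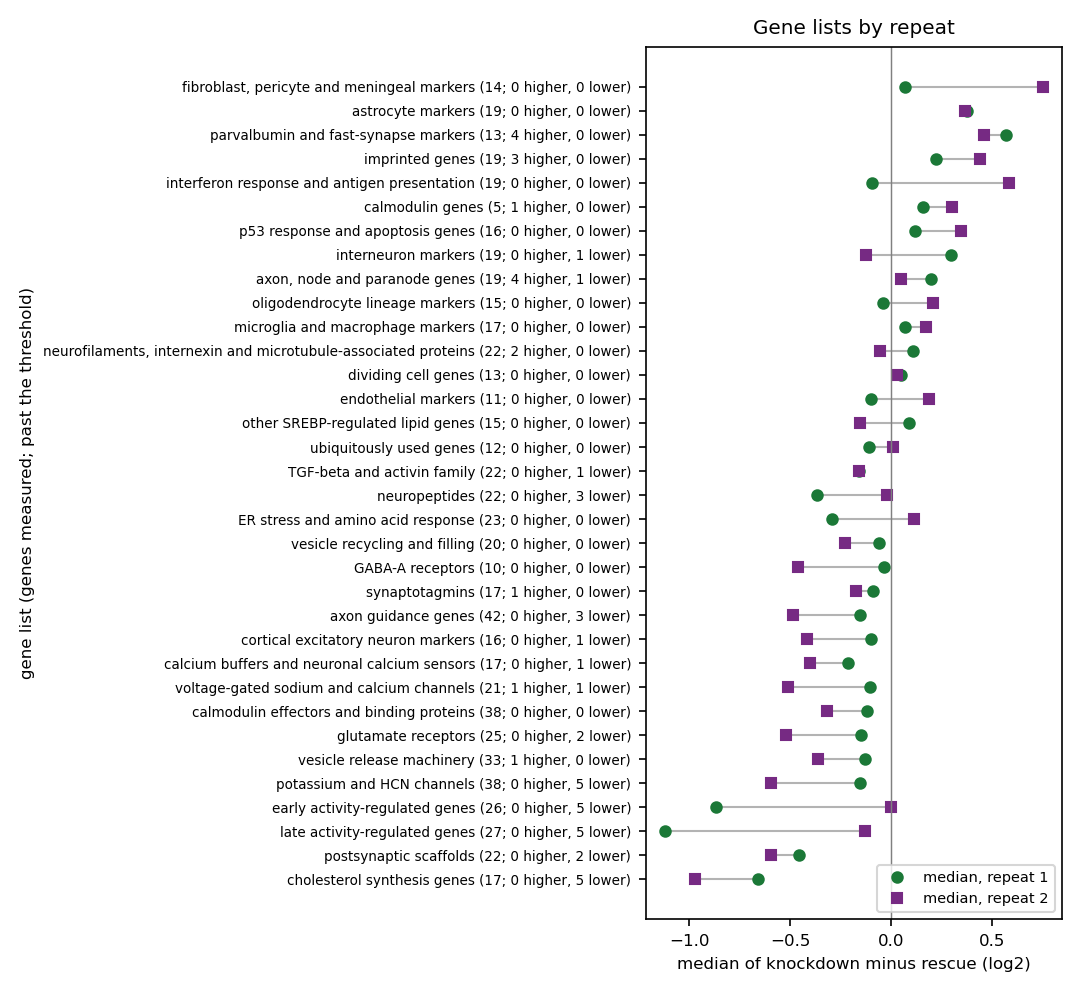
Median knockdown minus rescue difference (log2, x axis) of each of 34 gene lists (y axis, with the number of genes measured and past the threshold) in repeat 1 (circles) and repeat 2 (squares). Cholesterol synthesis genes lie lowest over both repeats (-0.66 and -0.97), late activity-regulated genes reach -1.12 in repeat 1 only, and astrocyte markers lie at 0.37 and 0.36.

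Some genes moved in opposite directions in the 2 repeats. Acan, the core protein of perineuronal nets, had ratios of -0.01 and 1.80 in the knockdown against 1.77 and 0.00 in the rescue. It was thus high in knockdown repeat 2 and rescue repeat 1 and at control in the other 2 samples, and its differences were -1.78 and 1.80. Dgkk, a diacylglycerol kinase, had the same order (0.29 and 1.52 against 1.45 and -0.08), as did Pim1, a kinase on the late activity list (-0.52 and 1.07 against 1.11 and 0.04), and the vesicular glutamate transporter Slc17a6 (0.66 and 1.42 against 1.61 and 0.62). Lcn2, lipocalin 2, was highest in knockdown repeat 2, at 2.43. Of genes higher in repeat 1 and lower in repeat 2, Cd24a lay at 0.74 and -1.26, Sla at 0.79 and -0.96, Tmtc4 at 0.76 and -1.16, Tbrg3 at 0.80 and -0.74 and Ptpru at 0.68 and -0.79. Such genes have a mean near 0 and could not be called, whatever their size in a repeat.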

How the data were processed

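The authors deposited 1 linear ratio per probe set and sample, with the control-virus array of that repeat as denominator (per the labels). Background correction, summarization, normalization and genome build are not given in the sources used here, and precision is limited by how few arrays there are. Platform annotation gave 21789 of 35399 probe sets exactly 1 symbol and 1621 several; 11989 were unnamed here. Symbols of 21698 were matched to RefSeq names of GRCm38.p6, which changed 0. Ratios were put on the log2 scale and averaged per symbol. The deposited column medians were 1.004, 1.006, 0.9952 and 0.996.

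The 2 within-repeat differences were tested against 0 by two-sided moderated tests (lmFit, then eBayes, of limma 3.58.1 under R 4.3.3), with Benjamini-Hochberg adjustment over 19938 genes and a threshold of 0.05. Blocking on the repeat gives the same test. SE is limma's moderated standard error. Pairing comes from the labels, where samples of 1 number have 1 repeat date. Their deviations from group means correlated at 0.305. The control array that both share makes such deviations correlate by itself, so this value does not speak for the pairing. Nothing says that the repeats were separate cultures, and the p-values reflect no more than how far these samples differ, which may be technical. In simulated data the share of false calls lay above the threshold in the paired fit and below it without pairing. Of 699 genes on 34 lists, 647 were measured. Genes named were the calmodulin genes, 15 per direction ranked by the smaller repeat, all that passed without the block, for each list its 4 largest and every called member, and 5 per direction with opposite signs. Genes and lists were chosen with earlier results of these data known, so they are not independent evidence.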

Additional observations from a re-analysis of the deposited data

How the results depend on the processing

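The count of 123 genes became 14 with no replicate block, 55 with columns centred on their medians, 194 with predicted genes, receptors and small RNAs left out, and 0 with all probe sets tested (smallest adjusted p = 0.368; 2600 probe sets at an unadjusted p under 0.05). With no replicate block and 1 sample left out, it ranged from 0 without either rescue replicate (990 and 897 at an unadjusted p under 0.05) to 350 without knockdown replicate 1, and was 147 without knockdown replicate 2; the group left with 1 sample was assumed to vary like the other. The causes were not tested. Quantile normalization (161), single probe sets (134), genes with 1 probe set (116) and a robust prior (112) stayed within 1.5 times. The count of 61 genes at least 2-fold apart in both repeats was 192 to 342 when 1 repeat was left out and so only 1 was read, and 56 to 79 otherwise. Of 58 named genes past the threshold, 14 stayed past it with no replicate block, 36 with columns centred and 57 under quantile normalization. None turned sign in the alternatives that hold them (55 of the 58 where probe sets were tested singly or genes with several left out). Several alternatives, such as that with no replicate block, leave the mean difference unchanged, so a turn of sign was not possible there. Leaving out a repeat leaves 1 difference and no test. Depth is unknown, as the ratios carry no intensity, and weakly detected genes could not be left out.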
